A study of Mus musculus with 17 samples.

Results

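The genes described here are 9 genes of fatty acid uptake and binding, chosen by their symbols: the scavenger receptor Cd36, the fatty acid transport proteins Slc27a1, Slc27a2, Slc27a4 and Slc27a5, and the fatty acid binding proteins Fabp1, Fabp2, Fabp4 and Fabp7. All 9 were found among the 19151 genes counted in high-fat diet (HFD) livers and the 24233 genes counted in Western-type diet (WD) livers, and all 9 passed the filter on low counts in every comparison. Total RNA was sequenced from 17 libraries. Livers came from WT mice and from N-LKO mice, in which floxed NgBR (gene symbol Nus1), a subunit of the cis-prenyltransferase that makes dolichol, is deleted by a Cre driven by the albumin promoter and so in hepatocytes. Male mice on a C57BL6 background ate chow first and then HFD or WD, a diet high in fat and cholesterol, for 16 weeks. There were 4 WT and 4 N-LKO livers under HFD, 3 WT and 3 N-LKO livers under WD, and 3 tumors, which were nodules from N-LKO mice under WD. Which mouse each nodule came from was not given in the sources used here.

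Long-chain fatty acids reach the hepatocyte from plasma. CD36 binds and takes them up at the cell surface, the FATP proteins encoded by the Slc27a genes couple transport to activation by CoA, and the small FABP proteins carry the fatty acids through the cytosol. Several of these genes are known targets of the lipid-sensing nuclear receptors PPAR alpha and PPAR gamma, which bind DNA together with RXR. FABP1 is the abundant binding protein of hepatocytes, FABP2 that of the small intestine, FABP4 that of adipocytes, with expression also in endothelial cells and macrophages, and FABP7 that of glia and radial progenitors. SLC27A2 and SLC27A5 are the FATP proteins of the liver, and SLC27A5 is also the bile acid CoA ligase.

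PPAR and RXR bind direct repeats of AGGTCA with 1 base between the 2 copies, so the promoters of the genes were searched for that repeat on both strands, allowing 2 mismatches over both copies. RefSeq promoter windows of 300 bases (250 before the start and 50 from it, build GRCm38.p6) were at hand for 7 of the 9 genes, with 3 windows for Slc27a1. Slc27a5 and Fabp4 had no window. A match stood in the windows of Fabp1 and Cd36, and 3.86% of all 32851 windows held one. The stretches around both matches are shown because they are the places where these letters occur upstream of the most abundant binding protein and of the surface receptor. Each is written 5′ to 3′ on the strand of its gene, with the match in capitals; both matches read as the repeat on the opposite strand.
Fabp1, chr6:71199788-71199826, plus strand, 1 mismatch: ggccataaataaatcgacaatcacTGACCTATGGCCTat
Cd36, chr5:17835924-17835983, minus strand, 2 mismatches: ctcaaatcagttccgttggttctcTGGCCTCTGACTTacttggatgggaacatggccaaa
The Fabp1 match ended 55 bases before the RefSeq start and the Cd36 match 51 bases before it. Distances depend on the annotation. The Fabp1 match ended at 71199824, just before the annotated gene start at 71199827, where the stretch was cut. The Cd36 window lies inside the annotated gene (chr5:17781690-17888801), so its start is not the most upstream one. A match with at most 1 mismatch, as for Fabp1, was present in 0.554% of all windows. These matches are a description of letters, and binding was not measured.

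Positions are given on GRCm38, with which the coordinates of the count tables matched. Cd36 lies at chr5:17781690-17888801 and its principal transcript has 15 exons. The transporters are spread over 3 chromosomes, with Slc27a2 at chr2:126552407-126588243, Slc27a4 at chr2:29802634-29817522, Slc27a5 at chr7:12988346-12998192 and Slc27a1 at chr8:71568882-71587302. The binding protein genes are short and have 4 exons each: Fabp1 at chr6:71199827-71205023, Fabp2 at chr3:122895072-122899506, Fabp4 at chr3:10204088-10208576 and Fabp7 at chr10:57784881-57788450. Fabp4 shares its stretch of chromosome 3 with Fabp5, at chr3:10012548-10016607, and with Fabp12, at chr3:10244209-10301183.

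Depth ran from 9096109 to 12215764 counts per library under HFD and from 15494718 to 20200578 under WD. The deleted gene, Nus1, was at 82.4 to 96 CPM (counts scaled to library size) in WT and 29.3 to 37.9 in N-LKO livers under HFD. Under WD it was at 88.1 to 98.8 CPM in WT livers, 41.6 to 51.1 in N-LKO livers and 28.9 to 43.9 in tumors, so all libraries sat with their labels. Under WD some libraries stood apart. WT replicate 2 had the lowest scaling factor (0.806, against 0.941 to 1.15 in the other WD libraries) and the lowest sum of recruited macrophage markers (153 CPM, against 283 and 320 in the other WT livers). Tumor replicate 1 had 5163 CPM of pericentral zone markers, against 418 and 545 CPM in the other tumors and 8225 to 14926 CPM in the livers. Tumor replicate 2 had the highest scaling factor (1.15) and 188 CPM of gut epithelium markers, against 10.1 and 16.4 CPM in the other tumors. Its chi-square per degree of freedom was 103 against tumor 1 and 84.6 against tumor 3, while tumors 1 and 3 had 65.2. Calls among the 9 genes that change without WT replicate 2 or tumor replicate 1 are given below without that library. Those of the other lists are counted without each of these 2. The sum of 8 hepatocyte markers was 46884 to 56145 CPM in WT livers, 33373 to 42090 CPM in N-LKO livers and 35635 to 61564 CPM in tumors.

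Fabp1 had the highest level of the 9 genes in every group when CPM were divided by length. Per kilobase (kb) of all annotated exons, it stood at 8092 ± 373 CPM (SD, n = 4) in WT livers under HFD and 2895 ± 310 (SD, n = 3) in WT livers under WD. Slc27a2 followed at 504 ± 45.3 and 561 ± 85.4 CPM per kb, and Slc27a5 at 210 ± 9.29 and 231 ± 37.8. Fabp2 came next, at 132 ± 6.25 and 138.3 ± 23.8 CPM per kb, and then Cd36, at 48 ± 8.17 and 100 ± 25.7. This order of the first 5 genes held in all 4 liver groups. Slc27a5 and Fabp2 overlapped between libraries in N-LKO livers under HFD, and Fabp2 and Cd36 overlapped in both liver groups under WD. Slc27a1, Slc27a4, Fabp4 and Fabp7 lay below, with group means of 1.12 to 11.3 CPM per kb in the livers. HFD and WD libraries came as separate tables that were counted and scaled separately, so that diet and table cannot be told apart in these levels.

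In tumors the order differed: Fabp1 stood at 1699 ± 602 CPM per kb, Slc27a2 at 309 ± 67.7, Cd36 at 132 ± 16, Slc27a5 at 115.8 ± 41.1, Fabp4 at 76.1 ± 55.8 and Fabp2 at 73.1 ± 30.6 (SD, n = 3). The place of Fabp4 depends on the length used. Its annotated exons together span 4489 bases, the whole gene, while its principal transcript has 896 bases. Per kb of principal transcript, Fabp4 reached 381 ± 280 CPM in tumors and came directly after Slc27a2, with 398 ± 87.1, and their libraries overlapped.

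**Figure D1:**
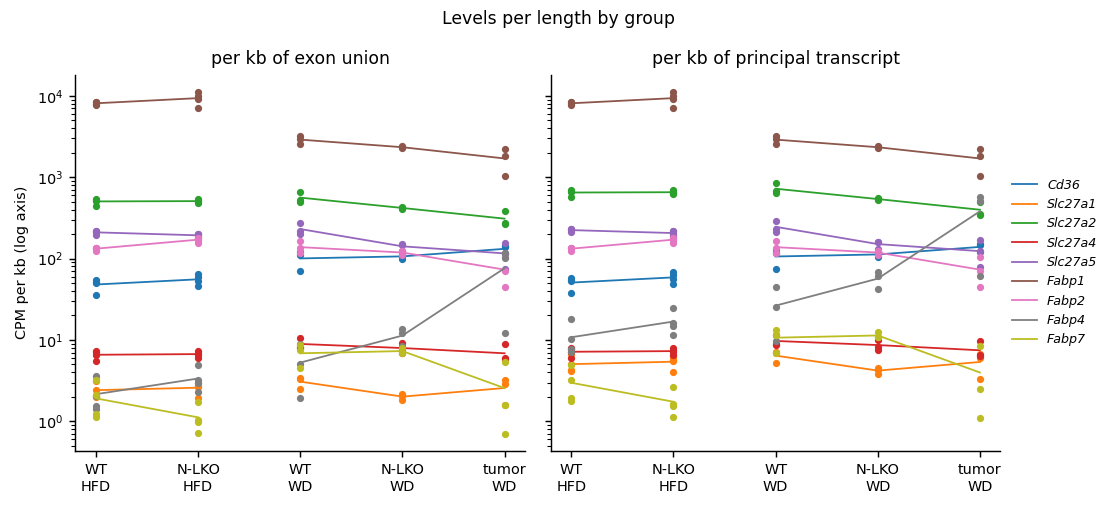
CPM per kb on a log axis for the 9 genes in the 5 groups, with 1 point per library and lines through group means within a diet. The left panel divides by the length of all annotated exons and the right panel by the principal transcript, which raises Fabp4 in tumors from 76.1 to 381 CPM per kb.

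The first comparison asked whether loss of NgBR in hepatocytes changed these genes under HFD. Fabp2 was higher in N-LKO livers by 1.29-fold, and none of the other 8 genes passed the test. Cd36 did not pass it. The study reported higher Cd36 mRNA in N-LKO livers under chow, a diet not covered here, and measured lipid uptake by separate assays. Across all 13460 genes tested, 4.84% were called at an adjusted p under 0.05, and 14.8% did not overlap in CPM between WT and N-LKO livers. Among the 9 genes, 1 was called and the same 1 did not overlap.

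Fabp2 was at 132, 119, 128.4 and 132 CPM in WT livers and at 171, 174, 163.8 and 151 CPM in N-LKO livers. Every N-LKO liver was above every WT liver. The log2 fold change was 0.37 (SE 0.0775, adjusted p = 0.0242, edgeR). The call was sensitive: it was lost when WT replicate 2, WT replicate 4, N-LKO replicate 1 or N-LKO replicate 3 was left out (highest adjusted p = 0.0762), with log2 fold changes of 0.33 to 0.41 over the 8 omissions. Short genes as a class were higher in N-LKO livers under HFD. The median log2 fold change was 0.22 in the tenth of genes with the shortest principal transcripts and -0.19 in the tenth with the longest, and the median in the length class of Fabp2 was 0.14. With an offset for exon length and GC content the value for Fabp2 was 0.25 with an adjusted p of 0.125.

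Cd36 was at 196, 184, 130 and 180 CPM in WT livers and at 212, 166, 230 and 192 CPM in N-LKO livers. The groups overlapped, and the log2 difference was 0.21 (95% confidence interval -0.08 to 0.51, adjusted p = 0.38). Fabp1 was at 4259, 4340, 4669 and 4632 CPM in WT livers and at 5499, 6223, 5025 and 3967 CPM in N-LKO livers. The N-LKO livers held both the highest and the lowest Fabp1 values, and the log2 difference was 0.21 (interval -0.08 to 0.50, adjusted p = 0.366), or 0.01 with the offset based on the principal transcript.

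The liver transporters were close in both genotypes under HFD. Slc27a2 was at 1643, 1966, 2026 and 1932 CPM in WT livers and at 1806, 1874, 2047 and 1904 CPM in N-LKO livers. The difference was 0.01 on the log2 scale with an interval of -0.20 to 0.22. Slc27a5 was at 480, 512, 530 and 527 CPM in WT and 462, 434, 494 and 495 CPM in N-LKO livers (log2 difference -0.12, interval -0.30 to 0.06). The widely expressed transporters Slc27a1 (11.3 to 18.5 CPM over the 8 livers) and Slc27a4 (24 to 32.2 CPM) differed by 0.10 and 0.03 on the log2 scale, with adjusted p of 0.774 and 0.912.

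The binding proteins of other tissues were scarce under HFD. Fabp4 was at 16.2, 9.16, 6.44 and 6.91 CPM in WT livers and at 13.4, 10.4, 14.7 and 22 CPM in N-LKO livers. Only WT replicate 1 reached into the N-LKO range, and the log2 difference of 0.64 (SE 0.292) had an adjusted p of 0.219. Without WT replicate 1 it was 1.00 with an adjusted p of 0.0444. Resident macrophage markers were lower in the N-LKO livers, at a sum of 61.8 to 126.3 CPM against 123 to 183 CPM, with 4 of 7 called lower (Clec4f, Vsig4, Timd4 and Marco), and recruited macrophage markers had sums of 46 to 65.8 against 37.1 to 62.4 CPM, with 0 of 6 called. The part of these cells in the Fabp4 values was not tested, and in bulk tissue fewer cells of a type and less RNA per cell cannot be told apart. Fabp7 was at 1.42 to 4.01 CPM in WT and 0.905 to 2.16 CPM in N-LKO livers (log2 difference -0.77, adjusted p = 0.255).

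**Figure D2:**
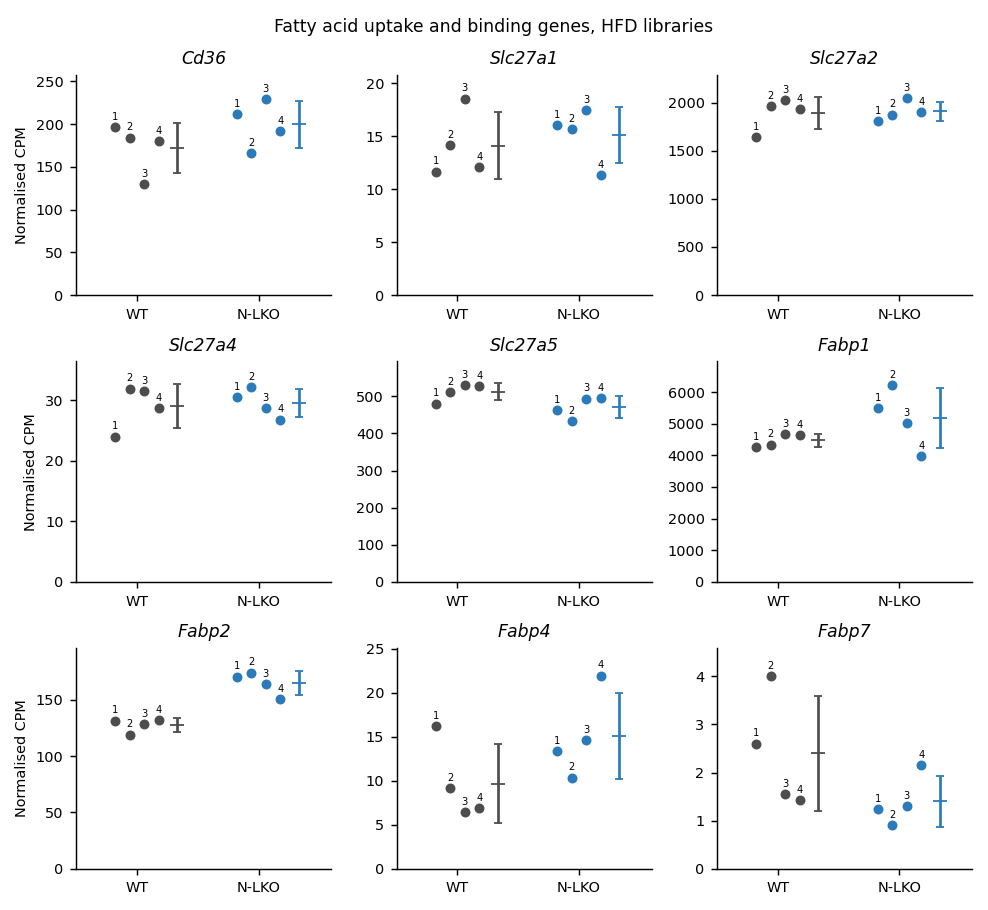
Normalised CPM of the 9 genes in the 4 WT and 4 N-LKO livers under HFD, each axis starting at 0, with replicate numbers above the points and the mean ± SD beside them. Only Fabp2 separates the genotypes, with 119 to 132 CPM in WT and 151 to 174 CPM in N-LKO livers.

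Under WD, 6 of the 9 genes had lower fitted values in N-LKO than in WT livers and 3 had higher ones, and no gene of the 9 passed the test. Of the 17829 genes tested, edgeR called 0%, and 27.9% did not overlap between the 2 groups. The deleted gene itself, with a log2 fold change of -1.02, had an adjusted p of 0.151 in this comparison. Among the 9 genes, 4 did not overlap, all lower in N-LKO livers: Slc27a1, Slc27a2, Slc27a5 and Fabp1. The quasi-likelihood test of edgeR, DESeq2 and limma-voom each called 0 of the 9, and 2 had an unadjusted p under 0.05 in edgeR, Slc27a1 and Slc27a5, as had 12.4% of all genes. Over all genes DESeq2 called 0.561% and limma-voom 0%. Hepatocyte markers moved the same way in these livers, with 0 of 8 called, lower fitted values in N-LKO livers for 8 of 8 and a median of -0.53 on the log2 scale, and their part in the values of the 9 genes was not tested.

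Slc27a5 was at 533, 666 and 488 CPM in WT livers and at 362, 302 and 371 CPM in N-LKO livers. The lowest WT liver was above the highest N-LKO liver, and the log2 difference was -0.70 (SE 0.25, adjusted p = 0.36). Slc27a2 was at 1865, 2470 and 1984 CPM in WT and at 1570, 1533 and 1614 CPM in N-LKO livers (log2 difference -0.42, adjusted p = 0.418). The 3 N-LKO livers differed from each other by less than the WT livers did. Slc27a1 was at 14.6, 19.7 and 19.5 CPM in WT and at 12, 10.6 and 12.6 CPM in N-LKO livers (log2 difference -0.61, adjusted p = 0.385).

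Fabp1 was at 1425, 1767 and 1610 CPM in WT livers and at 1261, 1318 and 1296 CPM in N-LKO livers, a log2 difference of -0.31 with an interval of -0.86 to 0.24. Fabp2, the gene called under HFD, was at 129, 158 and 113 CPM in WT and at 107, 118 and 119 CPM in N-LKO livers. Here its groups overlapped and the fitted difference was -0.22 (adjusted p = 0.733). Cd36 was at 397, 256 and 429 CPM in WT livers and at 387, 353 and 407 CPM in N-LKO livers. Its log2 difference of 0.08 (interval -0.37 to 0.53) became -0.12 without WT replicate 2, the liver with the lowest Cd36.

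Fabp4 was at 22.5, 8.74 and 39.7 CPM in WT livers and at 37.7, 54 and 60.8 CPM in N-LKO livers. WT replicate 3 overlapped the N-LKO range, and the log2 difference of 1.10 had an SE of 0.705 (adjusted p = 0.518). It was 0.70 to 1.70 when single libraries were left out. Slc27a4 and Fabp7 differed by -0.17 and 0.09 on the log2 scale (adjusted p of 0.727 and 0.953).

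Whether the genotype difference itself changed with diet was tested in 1 fit of the 14 livers over 15850 genes, of which 1.62% were called. Of the 9 genes 0 were called by edgeR and 0 by limma-voom, while DESeq2 called 3 (Slc27a2, Slc27a5 and Fabp2) and 5 had an unadjusted p under 0.05 in edgeR. Over all genes DESeq2 called 6.19%, and 20% had an unadjusted p under 0.05 in edgeR. The edgeR calls over all genes, 257, became 6 with the offset for length and GC content and 0 with a block for replicate number. Diet and table cannot be told apart in this test either. Fabp2 had a difference of differences of -0.56 (SE 0.144, adjusted p = 0.0586), with higher values in N-LKO livers under HFD and a fitted value below 0 under WD. Slc27a5 also had -0.56 (SE 0.157, adjusted p = 0.0728), Slc27a1 had -0.69 (adjusted p = 0.132) and Fabp1 -0.50 (adjusted p = 0.181). For Cd36 it was -0.11 with an interval of -0.64 to 0.42.

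Tumors were compared with both liver groups of the same diet. The 2 comparisons share the tumor libraries, and their values are given side by side. Against WT livers, Fabp4 rose 14.4-fold, while Slc27a2, Slc27a5 and Fabp2 fell to 0.552, 0.503 and 0.529 of the WT level. Against N-LKO livers none of the 9 genes was called by edgeR or limma-voom, and DESeq2 called Fabp4, with 5.73% of all genes called by that test. Over all 17829 genes, 14.9% were called and 34.1% did not overlap between tumors and WT livers, and 0.499% were called and 23.1% did not overlap between tumors and N-LKO livers. The called shares over all genes moved with single libraries, from 14.9% to 3.07% without WT replicate 2 and from 0.499% to 12% without tumor replicate 1. Of the 9 genes, 4 (44.4%) were called against WT livers (0 without WT replicate 2), and 5 (55.6%) did not overlap in each comparison.

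**Figure D3:**
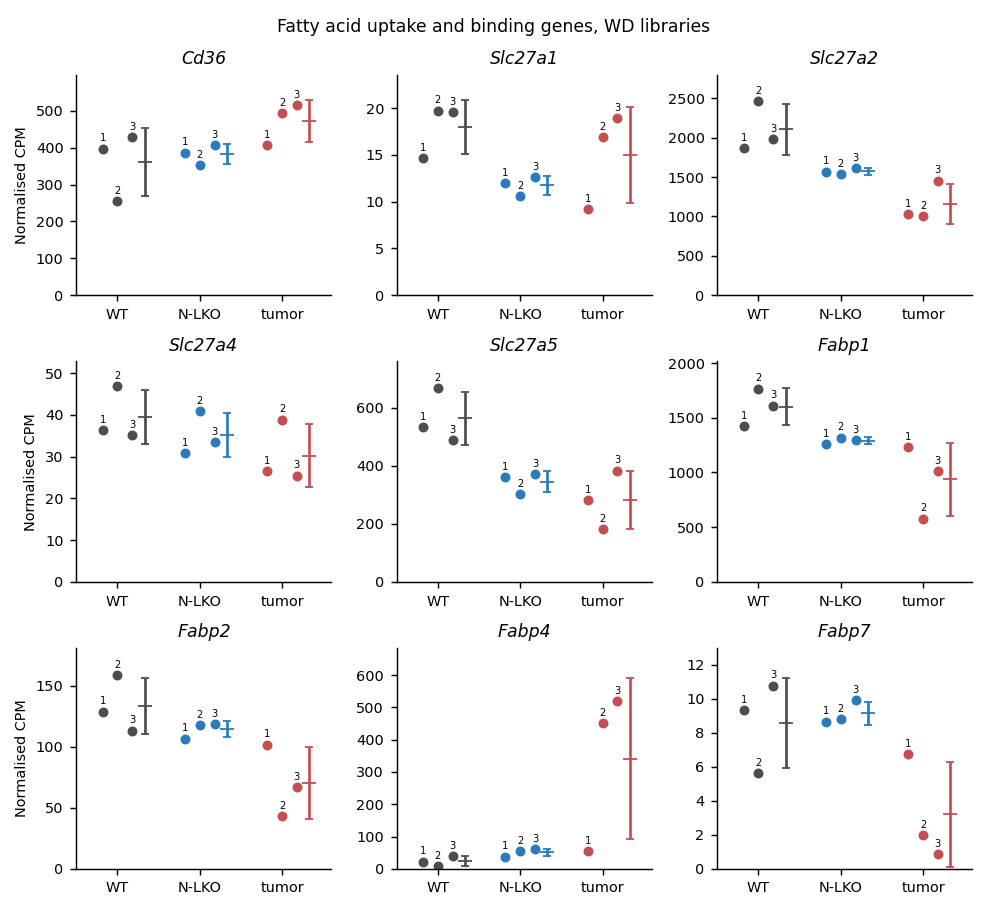
Normalised CPM of the 9 genes in 3 WT livers, 3 N-LKO livers and 3 tumors under WD, each axis starting at 0, with replicate numbers above the points and the mean ± SD beside them. Fabp4 is at 451 and 519 CPM in tumors 2 and 3 and at 54.8 CPM in tumor 1, which lies within the N-LKO range, and Fabp7 shows the opposite split.

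Fabp4 was at 54.8, 451 and 519 CPM in the tumors, against 22.5, 8.74 and 39.7 CPM in WT livers and 37.7, 54 and 60.8 CPM in N-LKO livers. All tumors were above all WT livers, but tumor replicate 1 lay inside the N-LKO range. The log2 fold change was 3.85 against WT livers (SE 0.774, adjusted p = 0.0152). The call was lost without WT replicate 1 and without WT replicate 2 (highest adjusted p = 0.0594) and was made under the 7 other omissions, with log2 fold changes of 3.42 to 4.45. Against N-LKO livers it was 2.75 (SE 0.734, unadjusted p = 0.00369, adjusted p = 0.105). Without tumor replicate 1 that value was 3.25 with an adjusted p of 0.00417, and DESeq2 gave an adjusted p of 0.0271 with all libraries.

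Markers of the cell types in which Fabp4 is known were measured in the same libraries. Of 6 adipocyte markers, Lep and Retn were not among the genes counted under WD, Adipoq and Plin1 were at 0 in every WT liver and at no more than 7 and 4 counts in any tumor, and the summed level was 9.79 to 16.8 CPM in tumors against 18.6 to 44.6 CPM in WT and 14.5 to 16.4 CPM in N-LKO livers. The 10 endothelial markers summed to 383 to 445 CPM in tumors, 367 to 398 CPM in WT livers and 342 to 399 CPM in N-LKO livers. Against WT livers 3 of the 10 rose (Pecam1, Cdh5 and Emcn) and 1 fell (Clec4g, of sinusoidal endothelium). Fitted values were higher in tumors for 7 of the 10 and lower for 3 against WT livers. Against N-LKO livers they were higher for 6 and lower for 4, with 1 called higher. Of the 10, values per tumor are given for 1, Emcn, of capillaries and veins. It was at 5.92, 12.2 and 13 CPM in the tumors against 2.71 to 3.63 CPM in WT livers.

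Recruited macrophage markers summed to 473, 417 and 347 CPM in tumors 1, 2 and 3, 153 to 320 CPM in WT livers and 298 to 344 CPM in N-LKO livers, with 3 of 8 higher against WT livers (Itgax, Cd9 and Ms4a7). Fabp4 was at 54.8, 451 and 519 CPM in the same 3 tumors in turn. Resident macrophage markers summed to 159 to 432 CPM in tumors against 488 to 714 CPM in WT livers, with 3 of 7 lower. The part of endothelial cells and macrophages in the Fabp4 values was not tested.

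Fabp5, the epidermal type binding protein encoded near Fabp4, was no member of the 9 and was read as part of the remaining family. It was at 22.5, 18.8 and 18.3 CPM in tumors, 4.11, 3.46 and 5.66 CPM in WT livers and 6.7, 6.97 and 7.65 CPM in N-LKO livers. The 3 groups did not overlap, and unlike Fabp4 all 3 tumors were high. The log2 fold change was 2.17 against WT livers (SE 0.199, adjusted p = 0.00124), called under all 9 omissions of a library, and 1.49 against N-LKO livers (SE 0.191, adjusted p = 0.0151), called in 6 of 9 and lost without any 1 of the N-LKO livers. Its counts were not whole numbers, so some reads had been split between Fabp5 and other loci. The rest of the family was scarce: Fabp3, Slc27a3, Slc27a6 and Fabp12 were at or below 6.83 CPM in every WD library, and Fabp6 and Fabp9 were not counted in either table. With Fabp5 included, 3 genes of the remaining family passed the filter on low counts under WD, and the others had no test. None but Fabp5 was called.

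**Figure D4:**
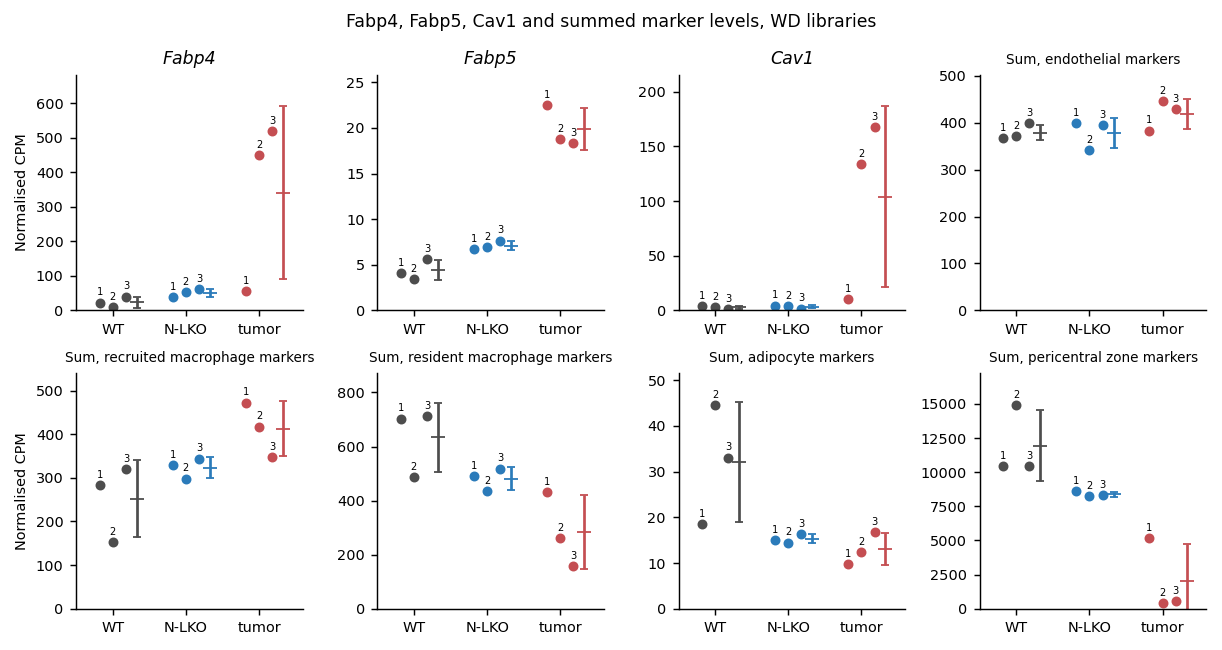
Normalised CPM of Fabp4, Fabp5 and Cav1 and summed CPM of 5 marker lists in the 9 WD libraries, with replicate numbers above the points and mean ± SD beside them (axes start at 0, which cuts the lower end of the pericentral error bar in tumors). Tumors 2 and 3 are high in Fabp4 and Cav1 and low in pericentral markers, with 418 and 545 CPM, while Fabp5 is high in all 3 tumors.

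Slc27a2 was at 1029, 1001 and 1455 CPM in tumors, below every WT liver (1865 to 2470 CPM) and every N-LKO liver (1533 to 1614 CPM). Its log2 fold change was -0.86 against WT livers (SE 0.198, adjusted p = 0.0222) and -0.44 against N-LKO livers (adjusted p = 0.277). Slc27a5 was at 282, 182 and 383 CPM in tumors, against 488 to 666 CPM in WT livers and 302 to 371 CPM in N-LKO livers. All tumors were below the WT livers, whereas tumor 3 was above every N-LKO liver, and the log2 fold changes were -0.99 (SE 0.252, adjusted p = 0.0293) and -0.29 (adjusted p = 0.577). Slc27a2 was called against WT livers under 7 of the 9 omissions of a library, and Slc27a5 under 6 of 9. Neither was called without WT replicate 2, Slc27a2 was also lost without tumor replicate 2, and Slc27a5 was also lost without WT replicate 1 or N-LKO replicate 3 (adjusted p of up to 0.0711 and 0.102 over the omissions). Of the 8 hepatocyte markers, 4 were called lower in tumors than in WT livers (Ttr, Hnf4a, Tat and Apoa2), 7 had lower fitted values and the median was -0.77 on the log2 scale, against -0.17 and 0 calls in the comparison with N-LKO livers. The part of these markers in the lower Slc27a2, Slc27a5 and Fabp2 and in the Fabp1 values was not tested.

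Fabp2 was at 101.7, 43 and 67 CPM in tumors, below both liver groups (113 to 158 and 107 to 119 CPM). The log2 fold change was -0.92 against WT livers (SE 0.266, adjusted p = 0.0447) and -0.70 against N-LKO livers (adjusted p = 0.206). The call against WT livers was the least stable of the 4: it was made in 1 of the 9 omissions, the one without tumor replicate 1, where the value was -1.28 with an adjusted p of 0.00488. Fabp1 was at 1232, 577 and 1009 CPM, also below both liver groups, with log2 differences of -0.77 (adjusted p = 0.0648) and -0.46 (adjusted p = 0.358). Without tumor replicate 1, Fabp1 was called lower than in WT livers (adjusted p = 0.0194, edgeR). Fabp1 and Fabp2 were lowest in the same tumor, replicate 2, and so were Slc27a2 and Slc27a5. In that tumor the gut epithelium markers summed to 188 CPM, against 10.1 and 16.4 CPM in the other tumors, and Vil1 alone was at 172 CPM. Of the 6 gut epithelium markers, Cdx1 and Cdx2 were not among the genes counted under WD. Any link between these markers and the Fabp2 values was not tested.

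Cd36 was at 408, 495 and 516 CPM in tumors. Every tumor was above the N-LKO livers (353 to 407 CPM) and the tumors overlapped the WT livers (256 to 429 CPM). Log2 differences were 0.39 against WT livers (interval -0.06 to 0.84, adjusted p = 0.208) and 0.31 against N-LKO livers (interval -0.14 to 0.76, adjusted p = 0.447). Slc27a1 was at 9.19, 16.9 and 18.9 CPM and Slc27a4 at 26.5, 38.9 and 25.4 CPM in tumors, and both overlapped the livers.

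Fabp7 was at 6.73, 2 and 0.885 CPM in tumors, against 5.63 to 10.8 CPM in WT livers and 8.65 to 9.93 CPM in N-LKO livers. The tumors were below all N-LKO livers. The log2 differences were -1.42 (adjusted p = 0.107) and -1.51 (adjusted p = 0.193), and without tumor replicate 1 the value against N-LKO livers was -2.64 with an adjusted p of 0.00369. Of 6 glial and neural markers, Sox10 and Sox2 were not among the genes counted, and the other 4 summed to 4.53 to 9.84 CPM in tumors and 3.43 to 6.14 CPM in livers. Leaving out tumor replicate 1 gave 4 calls against N-LKO livers, Slc27a1 and Fabp4 higher and Fabp2 and Fabp7 lower, and 6 against WT livers. Those 6 were the 4 called with all libraries, Fabp1, and Fabp7 (lower, adjusted p = 0.00284, edgeR). In the same fits 12% and 20.9% of all 18285 genes tested were called.

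**Figure D5:**
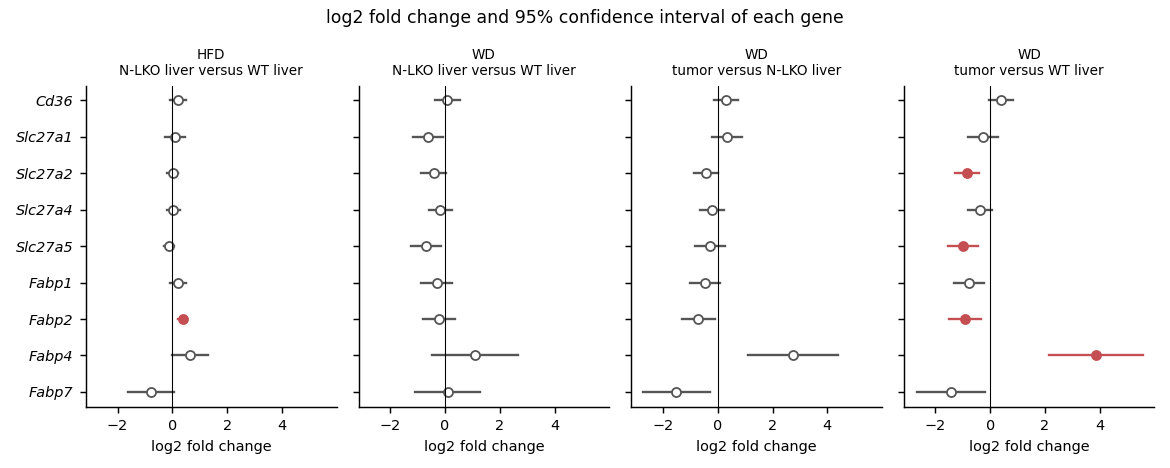
Log2 fold change of each of the 9 genes with its 95% confidence interval (unadjusted) in the 4 comparisons between groups, with filled red points for an adjusted p under 0.05. Of the 36 values 5 are called, Fabp2 under HFD and Slc27a2, Slc27a5, Fabp2 and Fabp4 between tumors and WT livers.

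The wider pathway was followed through 4 lists. In the HFD comparison, the WD comparison of livers and the test of the difference between diets, edgeR called 0 genes of each list. Against WT livers tumors had 3 of 10 PPAR alpha targets lower: Cpt1a, which admits fatty acids to mitochondria, and the fatty acid hydroxylases Cyp4a10 and Cyp4a14. The median over the 10 was -0.72 on the log2 scale, against 0.04 over all genes tested and -0.77 over the 9 uptake and binding genes. Cyp4a14 was at 450, 115 and 141 CPM in tumors and 1066 to 3729 CPM in WT livers (log2 fold change -3.45, adjusted p = 0.0149).

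Of 8 receptors and partners, 3 were lower in tumors than in WT livers, Ppara, Rxra and Nr1h3. Rxra, the partner of the PPARs, was at 262, 226 and 271 CPM in tumors and 493 to 752 CPM in WT livers (log2 fold change -1.20, adjusted p = 0.00895). Pparg was at 19.3 to 26.5 CPM in tumors and 22.2 to 29.4 CPM in WT livers. Of the 5 PPAR gamma targets of fatty liver, 1 was called lower (Cfd) and 0 higher. Fitted values were lower for 4 and higher for 1, Mogat1 (log2 difference 1.13, adjusted p = 0.119), and the median was -1.08.

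Of 10 genes tested for fatty acid trapping and acyl-CoA binding, Acsl1, the main long-chain acyl-CoA synthetase of liver, fell in tumors against WT livers (874, 711 and 969 CPM against 1843 to 2255 CPM, log2 fold change -1.29, adjusted p = 0.00782). Acbd3, an acyl-CoA binding domain protein of the Golgi, rose by 0.52 on the log2 scale (adjusted p = 0.0246). Cav1, the coat protein of caveolae, was at 10.4, 134 and 168 CPM in tumors against 1.07 to 4.25 CPM in WT and 1.70 to 4.35 CPM in N-LKO livers. Tumors 2 and 3 were again the high ones, as for Fabp4. Its log2 fold change was 5.28 against WT livers (adjusted p = 0.0111, lost without WT replicate 2) and 4.96 against N-LKO livers (adjusted p = 0.0487, made in 1 of 9 omissions). It was the only gene of the 4 lists called against N-LKO livers.

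The calls between tumors and WT livers outside the 9 genes also changed with single libraries, as did those over all genes. Over all genes tested, 14.9% were called with all libraries, 3.07% without WT replicate 2 and 20.9% without tumor replicate 1. Over these lists, the rest of the family and the marker lists, 32 genes were called. Without WT replicate 2 all 32 had the same direction and 9 were called (Fabp5, Acsl1, Rxra, Cfd, Cd5l, Itgax, Cd9, Ms4a7 and Sox9). Ppara, Nr1h3, Cpt1a, Cyp4a10, Cyp4a14, Acbd3, Pecam1, Cdh5, Emcn, Clec4g and the 4 hepatocyte markers were among those lost, with Cyp4a14 at -3.09 on the log2 scale (adjusted p = 0.054) and Emcn at 1.66 (adjusted p = 0.0604). Without tumor replicate 1, 29 of the 32 were called and 3 were lost, Ppara, Cyp4a10 and Cyp7b1.

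Genes that followed each of the 9 most closely were sought among 9189 genes with at least 5 CPM on average in both tables, by the lower of the Pearson correlations of log2 CPM over the 8 HFD and over the 9 WD libraries. These are descriptions over libraries that share depth, group and cell makeup. Fabp2 was most like Vti1b (0.958 and 0.933) and As3mt, and Fabp4 was most like Galns (0.934 and 0.963), a lysosomal sulfatase, and Pea15a. Slc27a5 was closest to Cyp2c29 (0.964 and 0.926) and Dmgdh, and Slc27a2 to Dhrs4 (0.896 and 0.944) and Acadvl, the very long-chain acyl-CoA dehydrogenase. Cd36 was closest to Gm14253, a processed pseudogene, and Alpl. Fabp1 was closest to Gm5835, also a processed pseudogene, and to Mgll, the monoacylglycerol lipase. Slc27a1 went with Ufd1 and Bahd1, and Slc27a4 with B3gat3 and Pxmp4, while Fabp7 fell under the minimum level.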

How the data were processed

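RNA was sequenced by the authors from 17 libraries after removal of ribosomal RNA, as single-end reads. As deposited, each value is an estimated count for 1 gene, made by Partek's expectation-maximisation model, in 1 table per diet. The submitters' processing notes name STAR, Partek and mm9, the study's methods name TopHat2 and cuffdiff, and the coordinates in the tables match GRCm38 (GENCODE M21), so the aligner and build of the counts are uncertain. Shared reads are split by that model, and 69.7% (HFD) and 66.6% (WD) of the deposited counts were whole within 1e-09. The counts of the 9 genes were within 0.005% of whole numbers.

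Counts were rounded and tested with edgeR 4.0.16 (R 4.3.3): TMM scaling, filterByExpr, the quasi-likelihood F test and Benjamini-Hochberg adjustment over all genes tested, with a threshold of 0.05. The fit under HFD held the 8 livers of that diet, the fit under WD all 9 libraries of its 3 groups, and the difference between diets the 14 livers. The SE is the log2 fold change divided by the root of F. Libraries are labelled biological replicates and differed beyond counting noise in all 21 pairs within groups (chi-square per degree of freedom 7.99 to 103). CPM were scaled by TMM. Depth is the total count per library, and 3 counts correspond to 0.149 to 0.33 CPM. Groups came from the sample titles. Deviations of same-numbered WT and N-LKO livers had r = 0.16, 0.15 and 0.16 over genes under WD. Under HFD they had r = 0.2, 0.18, 0 and -0.08. N-LKO livers and tumors of the same number had r = 0.15, 0.11 and 0.06, and whether they shared a mouse was not given. Same-numbered WT livers and tumors had r from -0.18 to 0.01. No value for pairs of different number is given here for comparison. Alternatives were DESeq2 1.42.0, limma-voom 3.58.1, other scalings and filters, the replicate block, offsets for length and GC content, a fit of 2 groups and omission of each library. Offsets from principal transcripts, levels per principal transcript the ranges for Fabp5 and Cav1, and the calls of the other lists without 1 library were added after seeing the data. The genes, lists and tests were chosen with earlier results of these data known. In the text all 9 genes and the rest of their families are named, of each other list the called genes (up to 4 each way) or the most abundant, and the 2 genes most like each of the 9. Markers were also named where they bear on a value. 1 gene of the PPAR alpha list is not reported here, and its counts leave it out.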

Additional observations from a re-analysis of the deposited data

How the results depend on the processing

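Calls among the 9 genes depended on single libraries. Under HFD the 1 call (Fabp2) became 0 with the length and GC offset, with that offset and the replicate block, and with the offset from principal transcripts, and ran from 0 to 2 when 1 library was left out (179 to 597 over all genes, against 652). Between tumors and N-LKO livers the count of 0 became 1 by the DESeq2 Wald test, while that over all genes went from 89 to 1021, and ran from 0 to 4 over the omissions (3 to 2193 over all genes). Between tumors and WT livers the count of 4 became 1 in a fit of only the 2 groups compared (Fabp4) and ran from 0 to 6, with 0 without WT replicate 2, 1 without WT replicate 1 and 2 without N-LKO replicate 3 or tumor replicate 2, while the count over all genes, 2653, became 705 in the fit of 2 groups and 569, 1218, 1654 and 1494 without those libraries in turn, with 3819 without tumor replicate 1. With all libraries, Fabp1 was called lower in tumors than in WT livers under 1 other setting and Fabp7 under 2. For the difference between diets 0 became 3 by the DESeq2 Wald test (257 to 981 over all genes) and ran from 0 to 1 (Fabp2 without WT replicate 3 under WD). The count of 0 between WT and N-LKO livers under WD stood at 0 under all alternatives run. That over all genes, 0 in the main fit, became 100 by the DESeq2 Wald test and 6 in a fit of only the 2 groups compared. The replicate block gave 3 calls between tumors and WT livers, where Fabp2 had -0.96 with an adjusted p of 0.0653, and left the counts at 1, 0, 0 and 0 elsewhere. Small values changed sign. Under HFD, Slc27a2 was -0.01 with the offset and with the offset and block, -0.05 without WT replicate 1 and -0.01 without N-LKO replicate 3, with a range of -0.05 to 0.05 over the omissions, and Slc27a4 was -0.06 without WT replicate 1 and -0.02 without N-LKO replicate 2 (-0.06 to 0.08). Between livers under WD, Cd36 was -0.16 with the offset, -0.15 with the offset and block, -0.18 with the offset from principal transcripts and -0.12 without WT replicate 2, where Fabp7 was -0.14 (ranges -0.12 to 0.22 and -0.14 to 0.29). The difference between diets for Cd36 was 0.01 without WT replicate 3 under HFD and 0.04 without WT replicate 3 under WD (-0.32 to 0.04). The causes of these changes were not tested. Depth limits Fabp7, Fabp3, Slc27a3, Slc27a6 and Fabp12, which had few counts.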
